A study of Mus musculus with 18 samples.

Results

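The mRNAs of the G1 cyclins, their kinases and the Rb family were followed through 18 RNA-seq libraries of mouse hematopoietic stem cells (HSCs). The genes were chosen by symbol, with no measured value in the rule, though earlier results of these data were known. Together they make up 10 of the 24421 gene symbols in the count table. They are the D-type cyclins Ccnd1, Ccnd2 and Ccnd3, the E-type cyclin Ccne1, the kinases Cdk2, Cdk4 and Cdk6, and the pocket protein genes Rb1, Rbl1 and Rbl2. All mice carried the Hoxb5-tri-mCherry reporter on a C57BL/6J background and received no treatment that the labels name. Long-term HSCs (LT-HSCs) were the mCherry-positive cells of the phenotypic HSC gate, short-term HSCs (ST-HSCs) were its mCherry-negative cells, and bulk-HSCs were the gate as a whole, which holds both. Each fraction was sorted from young mice of 2 to 3 months and from aged mice of 23 to 25 months, with 3 libraries per fraction and age. The comparisons ask how aging alters each fraction and how the fractions differ at one age. The number of animals behind a library is not given in the sources used here, so the p-values measure the spread between these samples, which may be technical.

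D-type cyclins are made in response to growth factor signals and activate the kinases CDK4 and CDK6. The active kinases phosphorylate the pocket proteins pRB (Rb1), p107 (Rbl1) and p130 (Rbl2), which then release E2F transcription factors and let the genes of DNA replication be transcribed, a step that cyclin E with CDK2 completes. Most adult HSCs are quiescent, p130 is the pocket protein typical of resting cells, and p107 rises in cells that cycle. RNA from sorted populations cannot tell fewer cells that express a gene from less of its RNA per cell.

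The libraries held 16495048 to 22973844 counts each, and 3 counts, taken as the smallest amount the depth can show, were worth between 0.132 and 0.176 CPM (counts scaled to a common library size, here after TMM scaling, which corrects for the composition of the libraries). That floor covers counting error only. The 10 HSC marker genes examined, such as Kit, Mecom and Procr, summed to between 3349 and 4554 CPM in every library. Hoxb5, which drives the reporter, was between 8.20 and 40.3 CPM in LT-HSCs and between 0 and 4.56 CPM in ST-HSCs, without overlap. The number of genes with at least 1 count ran from 11548 to 13876 in young libraries, with a median of 12492, and from 13526 to 14133 in aged ones, with a median of 13701. Among markers of other cells, the summed lymphoid list of 10 genes ran from 20.2 to 51.0 CPM in young libraries and from 42.9 to 154 CPM in aged ones, of which Klrb1c alone made up to 25.7 CPM and up to 136 CPM, while Ms4a1, Cd3e, Cd3g and Cd8a were at 0 in every library. The erythroid list of 8 genes summed to at most 23.8 CPM in young and 50.1 CPM in aged libraries, with Hba-a2 at up to 30.03 CPM in aged mice. The mature myeloid list of 9 genes overlapped between the ages in its sums, which ran from 108 to 153 CPM in young and from 94.1 to 133 CPM in aged libraries. Most of this was Lyz2, with group means of 121 to 141 CPM in young and 109 to 122 CPM in aged mice, while Mpo was at 0. The mast cell, basophil and eosinophil list of 7 genes stayed at or under 7.09 CPM, and the stromal and endothelial list of 6 genes summed to 52.0 to 91.9 CPM in young and 81.8 to 137 CPM in aged libraries. Most of the latter was Pecam1, with group means of 51.1 to 59.9 CPM in young and 64.2 to 76.8 CPM in aged mice. Kdr had group means of 6.15 to 24.8 CPM in young and 15.3 to 38.4 CPM in aged mice, while Cdh5 and Col1a1 were at 0. The part of these markers and of the number of detected genes in the results was not tested, except where a fit with the latter is given.

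The D cyclins are close relatives that lie on separate chromosomes of GRCm38, with Ccnd1 at chr7:144929931-144939925, Ccnd2 at chr6:127125162-127152193, both on the minus strand, and Ccnd3 at chr17:47505051-47599691 on the plus strand. Because the results below turn on how reads divide between them and between the kinases, the longest identical runs of their coding sequences are shown, as found in the GENCODE M21 transcripts. All lie within a single coding exon of each gene.
Ccnd1 and Ccnd2, 20 bases at chr7:144939542-144939561 and chr6:127150628-127150647: ttcaagtgcgtgcagaagga
Ccnd1 and Ccnd3, 17 bases at chr7:144932743-144932759 and chr17:47598621-47598637: gcctgccaggaacagat
Ccnd2 and Ccnd3, 14 bases at chr6:127150760-127150773 and chr17:47593655-47593668: atggagctgctgtg
Cdk4 and Cdk6, 20 bases at chr10:127064943-127064962 and chr5:3429099-3429118: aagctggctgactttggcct
The runs shared by Rbl1 with Rbl2 and by Rb1 with either were no longer than 14 bases. Each of these runs is far shorter than a sequencing read, so reads of one coding sequence had no exact copy in the relative. Genes on the opposite strand do overlap some exons, and the strand setting of the counting is not given in the sources used here. LTO1 (Oraov1 in the count table) shares 1100 exonic bases with Ccnd1, Tspan31 shares 641 with Cdk4, Aktip shares 693 with Rbl2, Bysl shares 361 with Ccnd3, Rcbtb2 and Lpar6 share 488 and 408 with Rb1, and Pmel shares 34 with Cdk2. Noncoding RNAs on the opposite strand overlap Ccnd2 (9330179D12Rik and Gm43126), Cdk6 (Gm17590) and Rbl2 (Gm45464, with 892 bases), and reads from such pairs cannot be told apart without strand.

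Ccnd2 was the most abundant of the 10 mRNAs per length. On the scale of CPM per kb of exon, over the 18 libraries, it averaged 75.9 ± 13.9 (SD), followed by Cdk4 with 49.8 ± 6.72 and Rbl2 with 32.8 ± 4.88. Each of the first 2 was above the next gene in 18 of 18 libraries, and by the length of the longest transcript Ccnd2 was above Cdk4 in 17 of 18. Ccnd1 came next with 21.9 ± 8.08 and Ccnd3 with 16.9 ± 2.37, but their order depended on the age and on the length used. By the length of all exons Ccnd1 was above Ccnd3 in 9 of 9 aged and 4 of 9 young libraries, and by the length of the longest transcript in 4 of 9 aged and 0 of 9 young libraries. Rbl1 averaged 13.8 ± 3.47 and Cdk2 10.9 ± 2.72, and this pair also changed places with the length used. Rb1 and Cdk6 averaged 7.37 ± 2.02 and 7.31 ± 2.44 CPM per kb over the 18 libraries, but their order differed between the fractions. Rb1 was above Cdk6 in 5 of 6 LT-HSC libraries, in 0 of 6 ST-HSC libraries and in 3 of 6 bulk-HSC libraries. Ccne1 was far below the rest, with 0.331 ± 0.528. The HSC libraries therefore held mostly cyclin D2, CDK4 and p130 mRNA within each of the 3 families at either age.

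**Figure D1:**
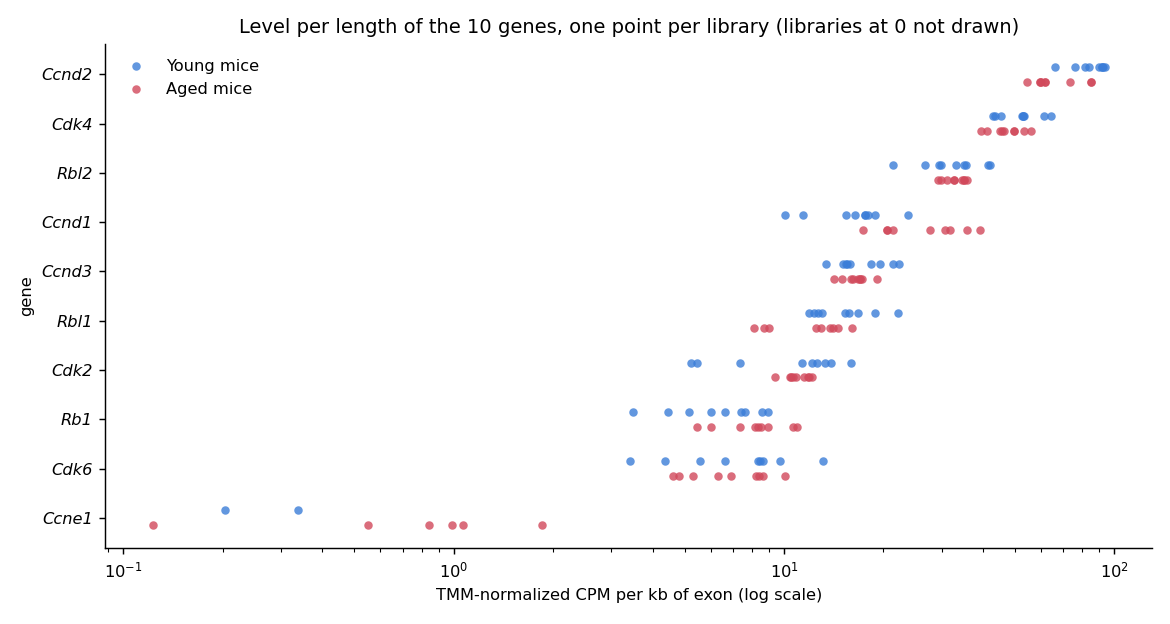
Level of each gene in TMM-normalized CPM per kb of exon (log axis), with 1 point per library, blue for the 9 young and red for the 9 aged libraries. Ccnd2 lies above Cdk4 and Cdk4 above Rbl2 in all 18 libraries, and 10 libraries with 0 counts of Ccne1 are not drawn.

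Of the 9 genes that passed the filter of a mean of at least 1 CPM, 2 changed with age when the age effect was averaged over the fractions, and both were D cyclins. Ccnd1 rose and Ccnd2 fell. The test was the quasi-likelihood test of edgeR with Benjamini-Hochberg adjustment over all 12808 genes tested. Of these, 864, or 6.75%, passed the threshold of 0.05 in this comparison. It treats the libraries of all fractions as independent. Whether fractions of one age share animals is not given, and if they do, the averaged p-values may be too small. In single fractions, 1 of the 9 passed in LT-HSCs (Ccnd2, lower), where 0.445% of all genes did, 0 passed in ST-HSCs, where 0.851% did and 2 of the 9 had an unadjusted p under 0.05, against 9.67% of all genes, and 1 passed in bulk-HSCs (Ccnd1, higher), where 1.98% did.

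Ccnd1 encodes cyclin D1, the D cyclin most tied to growth factor signals. In LT-HSCs it stood at 83.0, 111 and 72.3 CPM in the 3 young libraries and at 96.8, 145 and 130 CPM in the aged ones. In ST-HSCs the young values were 47.4, 84.4 and 53.6 CPM and the aged values 81.9, 101 and 96.3 CPM. In both of these fractions the ages overlapped, by a single young library that reached into the aged range. In bulk-HSCs the young libraries held 89.0, 82.7 and 77.5 CPM and the aged ones 168, 150 and 184 CPM. Here the ages lay well apart, and each aged bulk library was above every other library of the series. The fitted log2 fold change in LT-HSCs was 0.48 ± 0.21 (SE) with an adjusted p of 0.515, that in ST-HSCs 0.59 ± 0.21 with 0.276, and that in bulk-HSCs 1.01 ± 0.21 with 0.0185 (edgeR). The bulk-HSC difference, a 2.02-fold rise, passed the threshold, and without aged replicate 1, aged replicate 3 or young replicate 3 the adjusted p became 0.0554, 0.0820 and 0.0645. Averaged over the fractions Ccnd1 was 1.62-fold higher in aged mice, with a log2 fold change of 0.69 ± 0.12 (adjusted p = 0.00173), and this call held without any 1 library (adjusted p between 0.000255 and 0.00565). With the detected-gene number as a covariate the averaged value was 0.37 (adjusted p = 0.408) and the bulk-HSC value 0.59 (adjusted p = 0.323). Oraov1, the overlapping gene, was at 8.88 to 18.98 CPM in young and 8.94 to 29.0 CPM in aged libraries.

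Ccnd2 encodes cyclin D2, the D cyclin with the highest mRNA level here. In LT-HSCs it fell from 791, 881 and 843 CPM in young libraries to 566, 581 and 581 CPM in aged ones. In ST-HSCs the young values were 622, 870 and 770 CPM and the aged values 510, 561 and 560 CPM. The ages did not overlap in either fraction, and all 6 aged LT-HSC and ST-HSC libraries lay below all 9 young libraries of the series. In bulk-HSCs the ages overlapped, with 861, 715 and 861 CPM in young and 799, 692 and 798 CPM in aged libraries. The log2 fold change in LT-HSCs was -0.54 ± 0.11 with an adjusted p of 0.0368, that in ST-HSCs -0.47 ± 0.11 with 0.0531, and that in bulk-HSCs -0.09 ± 0.11 with 0.864 (edgeR). Averaged over the fractions it was -0.37 ± 0.06 (adjusted p = 0.00156), a ratio of 0.775, and the call held without any 1 library (adjusted p between 0.000248 and 0.00489). The LT-HSC call was less firm. It was lost in 5 of 6 fits that each left out 1 LT-HSC library, all but that without young replicate 2, with adjusted p up to 0.134, and in a fit on the LT-HSC libraries alone (0.0968). The ST-HSC value, just short of the threshold, passed it with DESeq2 (adjusted p = 0.00106), with limma-voom (0.0271) and without young replicate 1 (0.0108). With the detected-gene number as a covariate the averaged value hardly moved, at -0.39, but its adjusted p was 0.0750, and that of LT-HSCs was 0.128. The difference between the age effects of LT-HSCs and bulk-HSCs (the first minus the second) was -0.45 ± 0.16 for Ccnd2 (unadjusted p = 0.0101, adjusted p = 0.698), so a difference between the fractions was not shown after adjustment. For Ccnd1 it was -0.53 ± 0.30 (adjusted p = 0.880).

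Ccnd3 encodes cyclin D3, best known from lymphoid cells and the red cell lineage. It ran from 118 to 196 CPM in young and from 124 to 168 CPM in aged libraries, with overlap in each fraction. Its averaged log2 fold change was -0.08 ± 0.10 (95% confidence interval -0.29 to 0.13, adjusted p = 0.759).

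**Figure D2:**
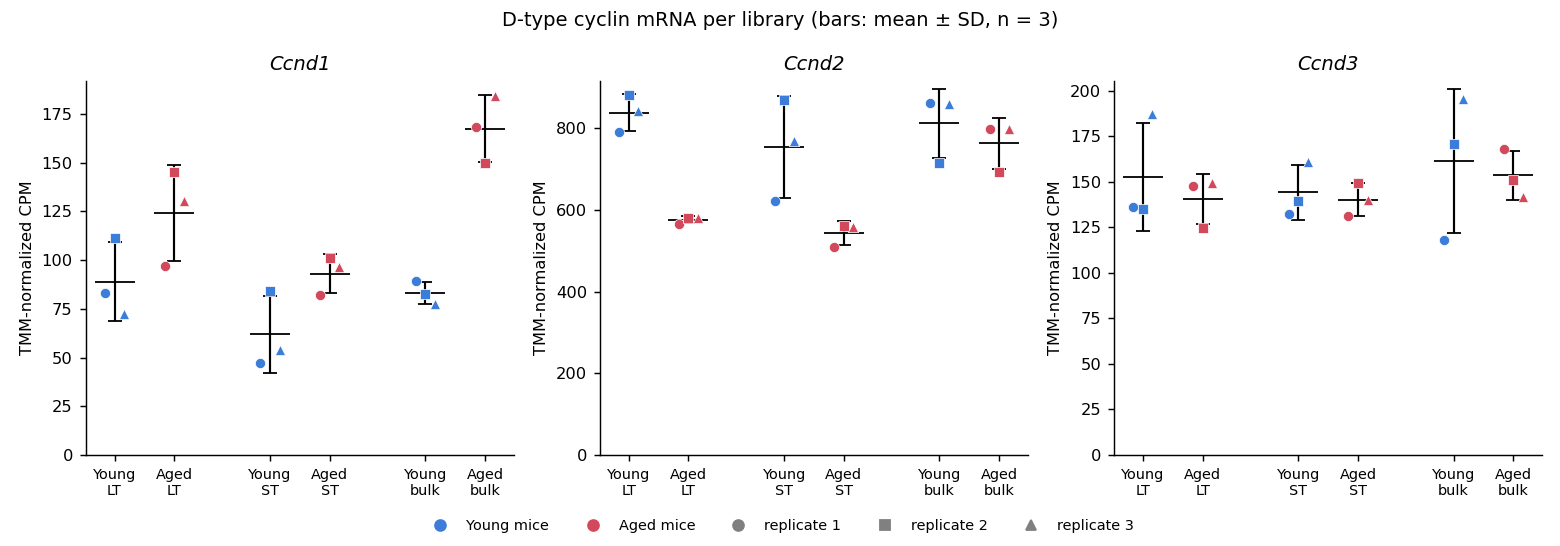
TMM-normalized CPM of the 3 D cyclin genes by fraction and age, with a symbol per replicate and bars for the mean ± SD of 3 libraries. Ccnd1 reaches 150 to 184 CPM in aged bulk-HSCs, and Ccnd2 lies between 510 and 581 CPM in the 6 aged LT-HSC and ST-HSC libraries against 622 to 881 CPM in the 9 young ones.

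The levels above can also be set against each other within each library, where sequencing depth and scaling cancel. The shares use the same values as the tests and sum to 100% in each library, so a higher Ccnd1 alone lowers the share of Ccnd2. As a share of the summed D cyclin mRNA, on the scale of CPM per kb of exon, Ccnd1 made up 10.2% to 17.8% in the 9 young libraries and 20.1% to 28.8% in the 9 aged ones. No young library of any fraction reached the lowest aged library. The mean share of Ccnd1 went from 15.02% ± 2.84 (SD, n = 3) to 25.3% ± 3.92 in LT-HSCs, from 11.8% ± 2.099 to 21.1% ± 0.906 in ST-HSCs and from 14.5% ± 1.60 to 26.5% ± 1.28 in bulk-HSCs. Ccnd2 made up 67.2% to 73.9% in young and 57.9% to 62.7% in aged libraries. In bulk-HSCs its mean share was 70.5% ± 3.33 in young and 60.4% ± 0.388 in aged libraries although its own level overlapped between the ages, and there the level that passed the test was that of Ccnd1. Ccnd3 kept 10.8% to 17.2% in young and 11.5% to 17.4% in aged libraries. These shares are a description of the libraries, with no test, and do not take the number of detected genes into account. With that number as a covariate neither Ccnd1 nor Ccnd2 passed in the average. The gap between the ages was present on each length scale tried, with Ccnd1 at 8.07% to 14.6% in young and 16.04% to 23.8% in aged libraries by the longest transcript. In all 3 fractions, therefore, cyclin D2 mRNA still made up most of the D cyclin mRNA of aged HSCs, and cyclin D1 had a larger part than in any young library.

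**Figure D3:**
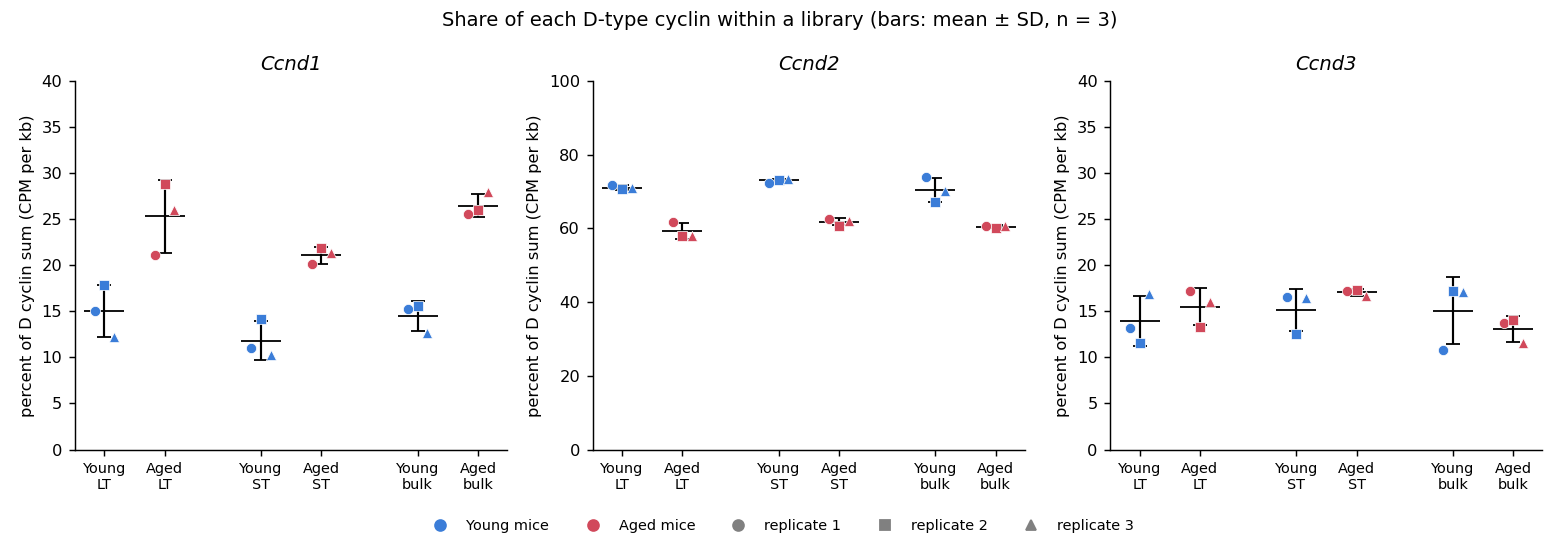
Share of each D cyclin in the summed D cyclin mRNA (percent of CPM per kb of exon) by fraction and age, with a symbol per replicate and bars for the mean ± SD of 3 libraries; the axis of Ccnd2 runs to 100 and those of Ccnd1 and Ccnd3 to 40. Ccnd1 lies between 10.2% and 17.8% in young and between 20.1% and 28.8% in aged libraries.

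Ccne1, which encodes cyclin E1, the partner of CDK2, was near the limit of the depth and was not tested. It had 0 counts in 10 of the 18 libraries, 7 of them young. The young libraries with reads were LT-HSC replicate 2 with 11 counts and ST-HSC replicate 1 with 19. In aged mice LT-HSC replicate 1 had 6 counts, ST-HSC replicates 1 and 3 had 63 and 99, while ST-HSC replicate 2 had 0, and the bulk-HSC libraries had 51, 52 and 30. All 3 aged bulk-HSC libraries thus had reads, at 1.46 to 2.63 CPM, where the 3 young ones had 0, which allows up to 0.136 to 0.168 CPM. The 0 of 1 aged ST-HSC library beside 63 and 99 in the others shows how uneven the counts were.

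None of the 3 kinase genes passed the threshold for a change with age. Cdk4, which encodes the main partner of D cyclins in most tissues, was at 139 to 209 CPM in young and 128 to 182 CPM in aged libraries, and its averaged log2 fold change was -0.13 ± 0.08 (95% confidence interval -0.31 to 0.04, adjusted p = 0.433, edgeR). Cdk2, the partner of cyclin E, was at 32.5 to 99.0 CPM in young and 58.3 to 75.4 CPM in aged libraries, with an averaged value of 0.03 ± 0.19 (95% confidence interval -0.38 to 0.44). The young Cdk2 values were split. LT-HSC replicate 3 (33.9 CPM), bulk-HSC replicate 1 (32.5 CPM) and ST-HSC replicate 2 (45.8 CPM) stood below the other 6 young libraries, which held 70.4 to 99.0 CPM. Cdk6, the second partner of D cyclins, was at 47.9 to 183 CPM in young and 64.6 to 141 CPM in aged libraries, with an averaged value of -0.08 ± 0.17 (95% confidence interval -0.43 to 0.27). The intervals leave room for changes of Cdk2 and Cdk6 larger than that of Ccnd2, so these values do not show that the kinases stayed level.

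**Figure D4:**
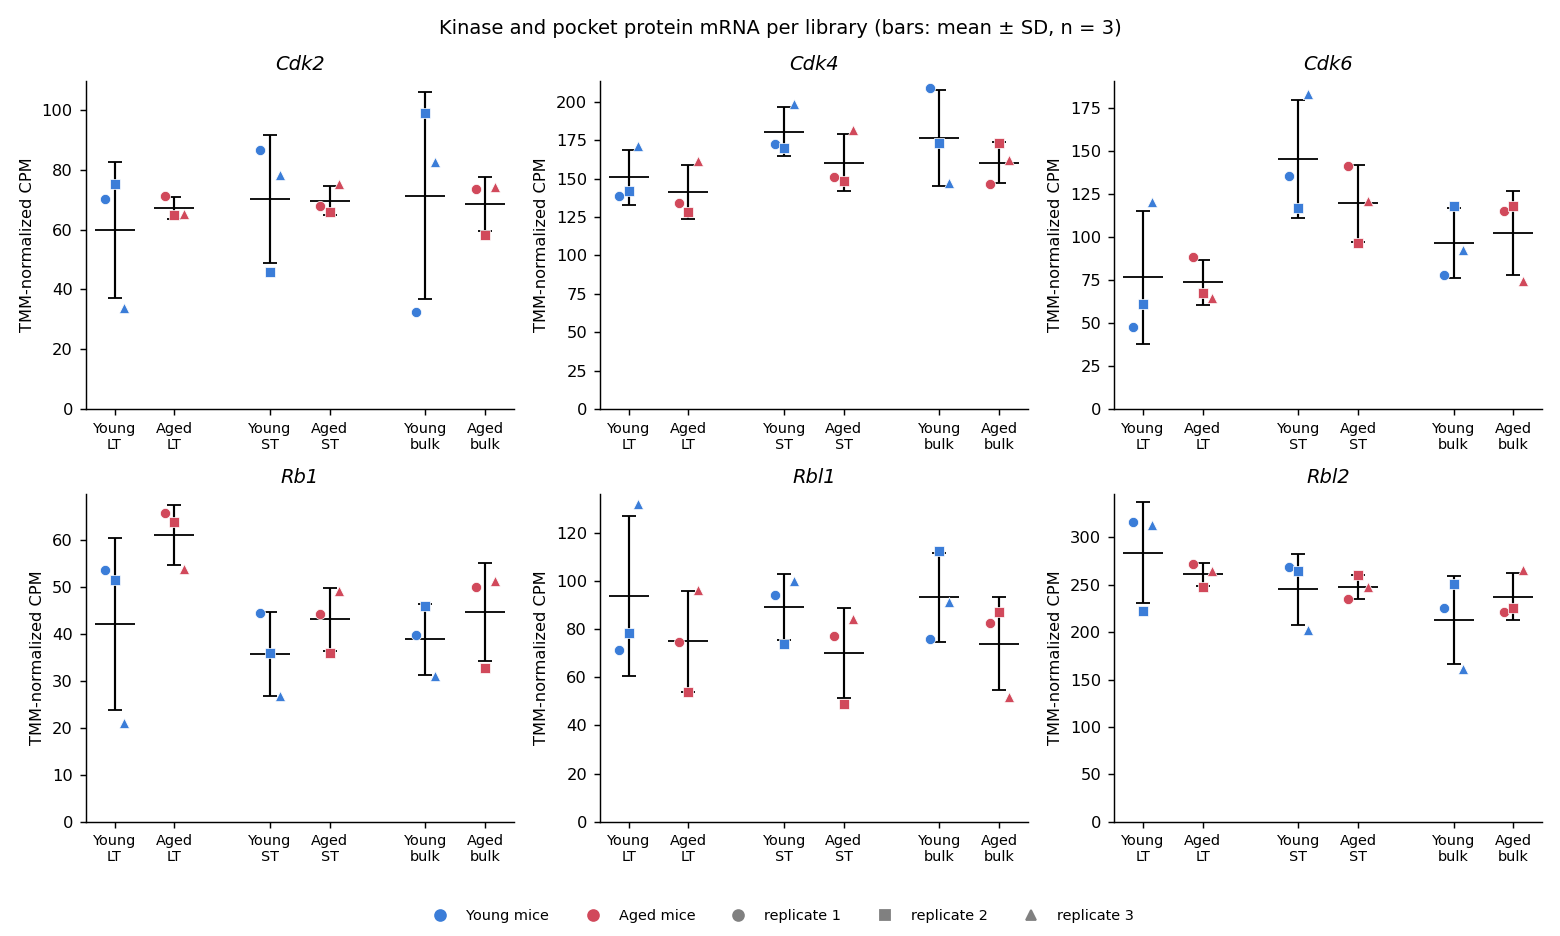
TMM-normalized CPM of the 3 kinase genes (upper row) and the 3 pocket protein genes (lower row) by fraction and age, with a symbol per replicate and bars for the mean ± SD of 3 libraries. Young LT-HSC replicate 3 is lowest of its group for Cdk2 (33.9 CPM) and Rb1 (21.0 CPM) and highest for Cdk6 (120 CPM) and Rbl1 (132 CPM).

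The pocket protein genes did not pass the threshold either. Rb1, the retinoblastoma gene, had 53.7, 51.6 and 21.0 CPM in young and 65.9, 63.8 and 53.8 CPM in aged LT-HSCs. The groups did not overlap, but the highest young and the lowest aged library were almost level. Young replicate 3 was far below the other young libraries. Lpar6 and Rcbtb2, which overlap exons of Rb1 on the opposite strand, had median counts of 2202.5 and 1743 over the libraries. Rb1 had 358 to 1208 counts, and the part of such overlapping reads in them was not tested. The log2 fold change in LT-HSCs was 0.54 ± 0.30 with an adjusted p of 0.691, that in ST-HSCs 0.27 ± 0.30 with 0.932, that in bulk-HSCs 0.20 ± 0.30 with 0.900 and the averaged one 0.34 ± 0.18 with 0.310 (edgeR). Rbl1 (p107) had 71.2 to 132 CPM in young and 48.7 to 96.3 CPM in aged libraries, and its log2 fold change was -0.32 ± 0.28, -0.35 ± 0.28 and -0.33 ± 0.28 in LT-HSCs, ST-HSCs and bulk-HSCs (adjusted p = 0.884, 0.850 and 0.741) and -0.34 ± 0.16 averaged (adjusted p = 0.262). The signs of Rb1 and Rbl1 were the same in each fraction, but with the detected-gene number as a covariate the averaged values turned to -0.17 and 0.02. Rbl2 (p130) was at 161 to 317 CPM in young and 221 to 271 CPM in aged libraries, with an averaged value of 0.02 ± 0.09 (95% confidence interval -0.18 to 0.22). It made up 51.1% to 71.0% of the pocket protein mRNA per length in the 18 libraries, against 16.5% to 36.6% for Rbl1 and 5.21% to 20.2% for Rb1.

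**Figure D5:**
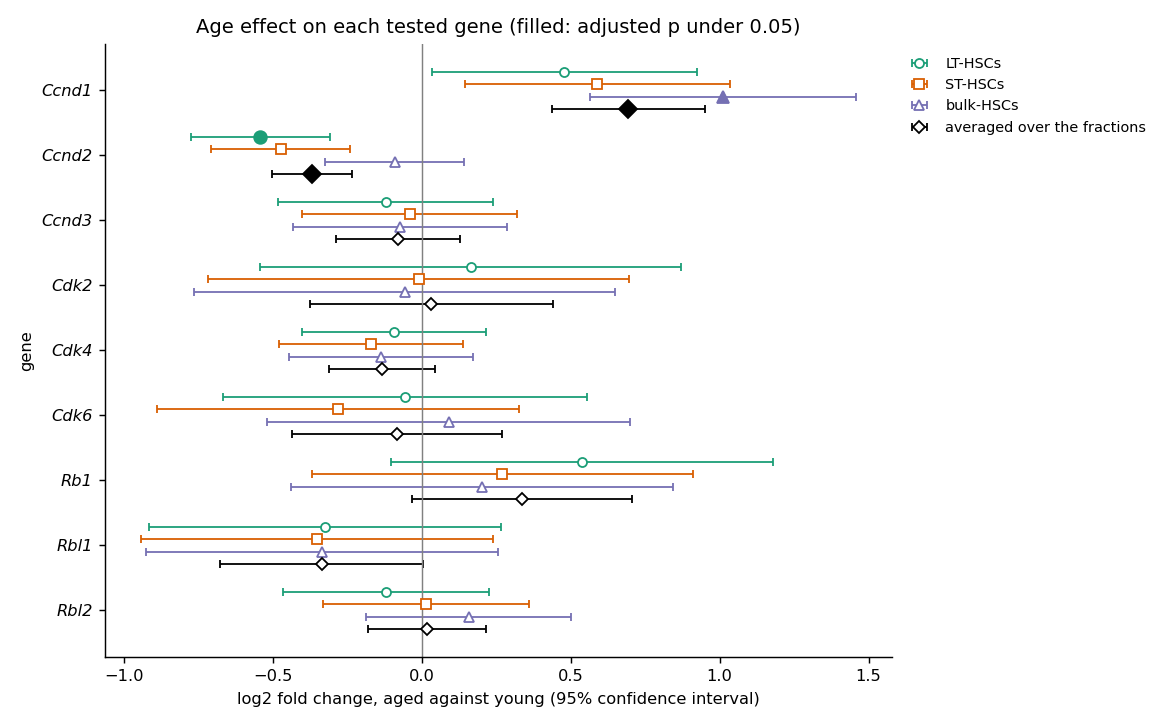
Log2 fold change of aged against young for the 9 tested genes, with 95% confidence intervals, in LT-HSCs (circles), ST-HSCs (squares), bulk-HSCs (triangles) and averaged over the fractions (diamonds), filled where the adjusted p is under 0.05. The filled symbols are Ccnd1 in bulk-HSCs (1.01) and averaged (0.69) and Ccnd2 in LT-HSCs (-0.54) and averaged (-0.37), and the intervals of the other 7 genes include 0.

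The spread between replicates was larger in young mice, for these genes as for all genes. The SD as a percentage of the mean was larger in the young than in the aged libraries in 20 of 27 pairs of a tested gene and a fraction, with a median of 19.8% in young and 10.5% in aged groups. Over all genes tested the young SD was the larger in 72.7% of such pairs. The pairs share the same libraries, and among the young ones replicate 3 of LT-HSCs and replicate 3 of ST-HSCs had the fewest detected genes, 11665 and 11548. The ages were fully apart for 2 of the 9 genes in LT-HSCs (Ccnd2 and Rb1), as they were for 16.1% of all genes, for 1 in ST-HSCs (Ccnd2), where the share was 17.8%, and for 1 in bulk-HSCs (Ccnd1), where it was 22.7%. These counts are near the share among all genes.

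E2F proteins, which the pocket proteins restrain, bind promoters such as that of Rbl1, and the promoters of the 10 genes were therefore searched for the letters TTTCCCGC, TTTCGCGC, TTTGCCGC and TTTGGCGC on both strands, from 250 bases before to 50 bases after the start in RefSeq's annotation of GRCm38.p6. Of the 10 genes 7 matched a promoter in the table used here, with 8 promoters, and 2 of the 8 held a match, those of Rbl1 and Cdk2. The same letters were in 2.27% of 32841 promoters and in 3.86% of the 12286 promoters of tested genes. The stretches around the 2 matches are shown 5′ to 3′ on the minus strand, on which both genes lie, with the match in capitals.
Rbl1, chr2:157204535-157204564: caagaaggcgatTTTCGCGCgctttgtcgc
Cdk2, chr10:128705173-128705202: aaccaggaactGCGGGAAAgttgtgcagct
The first match begins 18 bases before the start of Rbl1, and the second, on the strand opposite to the gene, 140 bases before that of Cdk2. Neither gene passed the age test, and a match of letters does not show that a factor binds.

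At one age, no difference between the fractions passed the adjusted threshold in these genes. The tests treated the libraries as unpaired. If fractions of one age share animals, which is not given, a paired difference could be missed. In young mice 0 of the 9 passed between LT-HSCs and ST-HSCs, LT-HSCs and bulk-HSCs or ST-HSCs and bulk-HSCs, where 0.429%, 0.273% and 0.164% of all genes passed, and 2, 1 and 0 of the 9 had an unadjusted p under 0.05, against 10.4%, 11.5% and 9.63% of all genes. None of the 9 was without overlap in these comparisons, where 12.1%, 12.2% and 10.9% of all genes were. In aged mice 0 of the 9 passed in any of the 3 comparisons, where 0.00781%, 0% and 0% of all genes did (1, 0 and 0 genes, with 437, 421 and 346 at an unadjusted p under 0.05), and 1, 1 and 2 of the 9 had an unadjusted p under 0.05. At this age the fractions were fully apart for 3 of the 9 between LT-HSCs and ST-HSCs (Ccnd2, Cdk6 and Rb1), for 3 between LT-HSCs and bulk-HSCs (Ccnd1, Ccnd2 and Rb1) and for 2 between ST-HSCs and bulk-HSCs (Ccnd1 and Ccnd2), where the shares of all genes were 15%, 15.1% and 14.5%. For the difference of the age effects, 0% of all genes passed between LT-HSCs and ST-HSCs and 0.00781% between LT-HSCs and bulk-HSCs, with 502 and 746 genes at an unadjusted p under 0.05, and 0 of the 9 passed in either.

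Cdk6 stood lower in LT-HSCs than in ST-HSCs at both ages, though short of the threshold. In young mice it had 47.9, 60.9 and 120 CPM in LT-HSCs and 136, 117 and 183 CPM in ST-HSCs, a log2 difference of -0.93 ± 0.29 (unadjusted p = 0.00536, adjusted p = 0.216, edgeR). In aged mice the values were 88.5, 67.3 and 64.6 CPM against 141, 96.5 and 121 CPM, a difference of -0.70 ± 0.29 (unadjusted p = 0.0271, adjusted p = 1). The aged groups did not overlap, and in young mice 1 LT-HSC library, replicate 3, reached into the ST-HSC range. Without that library the young difference was -1.42 (adjusted p = 0.0260), and DESeq2, which called 387 genes in all against 55 by edgeR, gave an adjusted p of 0.0375 with all libraries. Human work has tied the level of CDK6 to how soon short-term HSCs leave quiescence. As a ratio of Cdk6 to Cdk4 per length the means were 0.114 ± 0.0434 and 0.185 ± 0.0275 in young LT-HSCs and ST-HSCs and 0.123 ± 0.0301 and 0.174 ± 0.0372 in aged ones, with bulk-HSCs between them at 0.130 ± 0.0384 and 0.149 ± 0.0388 (SD, n = 3).

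In aged bulk-HSCs both Ccnd1 and Ccnd2 lay above either sorted fraction. The aged means of Ccnd1 were 124 ± 24.7 CPM in LT-HSCs, 93.0 ± 9.90 CPM in ST-HSCs and 167 ± 17.3 CPM in bulk-HSCs (SD, n = 3), and those of Ccnd2 were 576 ± 8.74, 544 ± 28.6 and 763 ± 61.4 CPM. The bulk-HSC gate holds both fractions, and a mix of these LT-HSC and ST-HSC libraries would lie between their levels. The 3 aged bulk-HSC libraries lay above those of LT-HSCs and ST-HSCs without overlap for both genes, where 15.1% and 14.5% of all genes did not overlap. Whether bulk-HSCs were sorted or handled apart from the other fractions is not given, and its part in these values was not tested. The difference of ST-HSCs from bulk-HSCs was -0.85 ± 0.21 for Ccnd1 (unadjusted p = 0.000858, adjusted p = 0.726, edgeR) and -0.49 ± 0.11 for Ccnd2 (unadjusted p = 0.000349, adjusted p = 0.407). DESeq2 called both, with adjusted p = 0.0146 and 0.00436, and limma-voom called both at 0.0117, where these tools called 41 and 24 of the 12808 genes in all and edgeR called 0. The difference of LT-HSCs from bulk-HSCs was -0.43 ± 0.21 for Ccnd1 and -0.41 ± 0.11 for Ccnd2 (both adjusted p = 1, edgeR), and limma-voom, which called 30 genes in all, gave Ccnd2 an adjusted p of 0.0481. In young mice no such gap was seen, with Ccnd1 at 88.9 ± 20.2, 61.8 ± 19.8 and 83.1 ± 5.78 CPM and Ccnd2 at 838 ± 45.4, 754 ± 125 and 812 ± 84.3 CPM in the same order. The aged bulk-HSC libraries enter the bulk-HSC age comparison, the averaged age effects and the fraction comparison, so these are views of the same values. How much of each bulk-HSC library came from either fraction was not measured here.

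Of the pathway around these genes, the replication licensing list was the one with several genes called. It holds 17 genes, among them the subunits of the MCM helicase that E2F factors induce before S phase. Averaged over the fractions, 17 of 17 had a negative log2 fold change, with a median of -0.54 against 0.04 over all genes tested. Of the 17, 6 passed the threshold, all lower in aged mice, where 6.75% of all genes passed. Mcm6 went from a range of 198 to 339 CPM in young to 96.8 to 260 CPM in aged libraries (log2 fold change -0.66 ± 0.11, adjusted p = 0.000855), Mcm3 from 129 to 222 CPM to 92.0 to 150 CPM (-0.59 ± 0.11, adjusted p = 0.00202), Mcm4 from 96.0 to 180 CPM to 54.8 to 117 CPM (-0.54 ± 0.11, adjusted p = 0.00677) and Mcm5 from 49.997 to 140 CPM to 40.2 to 95.6 CPM (-0.61 ± 0.13, adjusted p = 0.00892, edgeR). The ranges of the ages overlapped for each of the 4 over all fractions and within ST-HSCs. Within LT-HSCs and within bulk-HSCs they did not, where the same held for 16.1% and 22.7% of all genes. The 4 were named for the smallest p in this list, a choice that favors such gaps. In the LT, ST and bulk fractions 0 of the 17 passed, where 0.445%, 0.851% and 1.98% of all genes did. There 14, 15 and 16 of 17 were negative, with medians of -0.37, -0.47 and -0.52. With the detected-gene number as a covariate 0 of the 17 passed in the average, where 16 were negative with a median of -0.27.

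In the other lists few genes passed in the average, where 6.75% of all genes did. Of the 7 CDK inhibitor genes 5 were tested and 1 passed in the average, higher in aged mice. It was Cdkn1a (p21), at 0 counts in 5 of 9 young libraries and at up to 7.15 CPM in the others, and at 3.50 to 7.47 CPM in the 9 aged ones (adjusted p = 0.0321). In LT-HSCs its ages overlapped, with 0, 3.82 and 7.15 CPM in young and 7.47, 3.90 and 6.92 CPM in aged libraries, and with the detected-gene number as a covariate 0 of the 5 inhibitor genes passed. Of the 7 genes of mitogen input 1 passed, Egr1, an immediate early transcription factor, with 23.5 to 83.6 CPM in young and 60.3 to 267 CPM in aged libraries (log2 fold change 1.28 ± 0.28, adjusted p = 0.00827). None passed among 10 tested partners of the cyclins and kinases, 10 genes of the E2F and DP family, 6 subunits of the MuvB and DREAM complex and 10 genes that degrade G1 regulators, with 3, 2, 2 and 3 at an unadjusted p under 0.05, against 19.7% of all genes. Their medians were -0.17, -0.16, 0.11 and 0.17. No gene of these 7 lists passed the age test in LT-HSCs, ST-HSCs or bulk-HSCs, where 0.445%, 0.851% and 1.98% of all genes did.

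The genes whose levels followed the called cyclins most closely were found by Spearman's rho of log2(CPM + 1) over the 18 libraries, among 9712 genes with a mean of at least 10 CPM. Those libraries share the ages and fractions that set the cyclins apart. For Ccnd1 they were Por (rho = 0.866), which encodes the electron donor of the cytochromes P450, and Srxn1 (0.864), an antioxidant enzyme. For Ccnd2 they were Sorl1 (0.895), a sorting receptor, Tbc1d16 (0.884), a regulator of Rab proteins, and D630045J12Rik (0.860).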

How the data were processed

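RNA from 18 sorted HSC samples was made into ribosomal-RNA-depleted, paired-end libraries. Per the labels and the study's methods, the authors aligned reads to mm10 with HISAT2 and used SAMtools 1.7 and StringTie 1.3.4d, and they deposited raw counts per gene as whole numbers. The study's methods name StringTie for the assembly and quantification of transcripts. How whole-number counts per gene were made from this and whether strand was used is not given in the sources used here. Genes with a mean of at least 1 CPM after TMM scaling were kept (12808 of 24421). One model with 6 group means was fitted to all 18 libraries with the quasi-likelihood test of edgeR 4.0.16 (R 4.3.3), and p-values were adjusted over all genes tested at a threshold of 0.05. In simulated LT-HSC data 200 of 12808 genes, drawn from those with a mean of at least 10 CPM, were changed 4-fold. Of these, 157 were recovered, and 2 other genes were called. Smaller changes, such as those reported for the cyclins, were not simulated. Alternatives used DESeq2 1.42.0, limma 3.58.1 (voom), other scalings and filters, covariates and the leaving out of each library. Library sizes from the tested genes, leaving out the 2 libraries with the fewest detected genes, and the detected-gene covariate for the pathway lists were added after seeing the data. The members and lists were chosen with earlier results of these data known. All 10 members were named, with up to 4 called genes per pathway list and the 3 genes most like each called member, of which 1 is not reported here. Positions are from GENCODE M21 (GRCm38), and promoters from RefSeq GRCm38.p6. Depth was 16495048 to 22973844 counts per library. Figures were drawn with matplotlib 3.10.9.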

Additional observations from a re-analysis of the deposited data

How the results depend on the processing

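Of 239 alternative counts of called genes among the members, 217 were the same as the reported count or within 1.5 times of it. In most comparisons the reported count was 0, and there only another 0 was taken as the same, so this total does not measure how firm the calls were. Where 1 member was called, leaving out 1 library changed the count in 5 of 6 fits in LT-HSCs and in 3 of 6 in bulk-HSCs. The pathway lists are not part of these numbers. The age effects averaged over the fractions kept both calls, Ccnd1 and Ccnd2, without any 1 library (2 to 2 members), but 0 members passed with the detected-gene number as a covariate, where 153 genes passed in all against 864. With that covariate 0 members passed in LT-HSCs and 0 in bulk-HSCs, and 0 CDK inhibitor genes and 0 replication licensing genes passed in the average. It also turned the sign of Rb1 in ST-HSCs (-0.15), bulk-HSCs (-0.47) and the average (-0.17), and of Rbl1 in LT-HSCs (0.0294), bulk-HSCs (0.0883) and the average (0.0216), none of which passed the threshold in either fit. Detected genes moved with age, so the covariate and age can be separated only in part. Leaving out 1 library, Rbl1 in LT-HSCs ranged from -0.54 to 0.00535, the latter without young replicate 3. In LT-HSCs 0 members passed in a fit on the groups compared only and 0 without the 2 libraries with the fewest detected genes. In ST-HSCs 1 passed (Ccnd2) with at least 10 counts in every library, with DESeq2 and with limma-voom, and DESeq2 called 448 genes in all against 109. DESeq2 called 1 member (Cdk6) between LT-HSCs and ST-HSCs in young mice, with 387 genes in all against 55, and 2 between ST-HSCs and bulk-HSCs in aged mice, with 41 genes in all against 0, where limma-voom also called 2, with 24 in all. Between LT-HSCs and bulk-HSCs in aged mice limma-voom called 1, with 30 in all against 0. The cause of these differences was not tested. Leaving out 1 library gave 0 to 1 members in each fraction's age effect and in the comparison of young LT-HSCs with ST-HSCs. Without length scaling the mean share of Ccnd1 in the D cyclin sum was 6.54 percentage points higher in aged mice, against 10.5, and that of Ccnd2 -7.98, against -11.03.

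With the replicate number as a replicate block, the age effect of 1 member passed in LT-HSCs and of 0 in ST-HSCs. It passed for 1 in bulk-HSCs and for 2 in the average, and the block changed no call of a member. The block gave each number a shift common to both ages. It therefore does not describe fractions of one age that share animals. Only 1 of 45 pairs of libraries with the same number correlated above 0.1 in their deviations from the group means (r from -0.05 to 0.12), so the numbers were not taken to pair the libraries. In 6 of 6 pairs of an LT-HSC and an ST-HSC library of one age, the LT-HSC library correlated best with the ST-HSC library of its own number, and the same held in 21 of all 45 pairs. This is a hint from the data and not from the design, and a shared sort of these fractions was not tested. No fit on the compared groups alone was made for the averaged effect or the differences of age effects, which use all or most groups.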
